A study of Mus musculus with 3 samples.

Results

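Iron and heme handling was described here through 9 genes, Fth1, Ftl1, Hmox1, Slc40a1, Slc11a1, Slc48a1, Tfrc, Blvrb and Alas2, which were taken by symbol from the 31053 genes of the deposited tables, and all 9 were found. Their RNA was counted in single cells from mouse brains that carried a glioblastoma. Female C57BL/6 mice of 6 to 8 weeks received BT0309 brain tumor-initiating cells, a line from NPcis mice (Trp53+/-/Nf1+/-) that carries luciferase and GFP, in the right striatum. From day 7 the niacin group was injected intraperitoneally every day with 100 mg/kg of niacin, also called vitamin B3, and the vehicle group with saline. At 4 weeks a 2 mm section around the injection site was taken, myelin was removed on a Percoll gradient, and live cells were sorted by a dead-cell dye and sequenced. The 3 libraries analysed here are vehicle replicate 2, niacin replicate 1 and niacin replicate 2, and each is a pool of mice. The vehicle group therefore had 1 library, and no test between the treatments was made.

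Cells keep iron in ferritin, a hollow shell of heavy chains (Fth1), which oxidize iron, and light chains (Ftl1), which help it to settle as mineral. Heme, the iron-holding ring of hemoglobin, is opened by heme oxygenase 1 (Hmox1), which yields biliverdin, and biliverdin reductase B (Blvrb) reduces some biliverdin isomers and flavins. Phagocytes that engulf red cells move heme out of the phagosome through Slc48a1 (HRG1) and metal ions through Slc11a1 (NRAMP1). Iron enters most cells bound to transferrin through the transferrin receptor (Tfrc) and leaves through ferroportin (Slc40a1), the only known cellular iron exporter. Alas2 starts heme synthesis in red cell precursors. In the brain, microglia are the resident macrophages, whereas monocytes and neutrophils enter from blood.

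Several of these genes carry an iron-responsive element, an RNA hairpin that iron regulatory proteins bind when iron is scarce. In a 5′ UTR the bound protein blocks translation, and in the 3′ UTR of Tfrc it protects the RNA from decay. The elements are shown because they separate the 9 genes by mode of control, which UMI counts of RNA do not read for the 5′ elements. A search for a bulged C, 5 stem bases, the loop CAGTGN and 5 bases that pair with the stem found a match in 5 of the 9 genes, in 28 of 20890 genes with a 5′ UTR (0.134%) and in 127 of 21004 genes with a 3′ UTR (0.605%). Each sequence below reads 5′ to 3′ on the strand of the gene, in the GRCm38 build with the GENCODE annotation, and capitals mark the bulged C and the 6-base loop.
Fth1, 5′ UTR, chr19:9982733-9982760, plus strand: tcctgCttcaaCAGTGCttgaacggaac
Ftl1, 5′ UTR, chr7:45459779-45459806, minus strand: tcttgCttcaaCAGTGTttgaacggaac
Slc40a1, 5′ UTR, chr1:45925465-45925492, minus strand: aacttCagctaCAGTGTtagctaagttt
Alas2, 5′ UTR across an exon junction, chrX:150547459-150552149, plus strand: tggttCgtcctCAGTGCagggcaacagg
Tfrc, 3′ UTR site 1, chr16:32631220-32631247, plus strand: attatCggaagCAGTGCcttccataatt
Tfrc, 3′ UTR site 2, chr16:32631599-32631626, plus strand: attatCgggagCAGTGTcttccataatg
Tfrc, 3′ UTR site 3, chr16:32631664-32631691, plus strand: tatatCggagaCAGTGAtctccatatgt
Tfrc, 3′ UTR site 4, chr16:32631711-32631738, plus strand: attatCgggaaCAGTGTttcccataatt
No match was found in the UTRs of Hmox1, Slc11a1, Slc48a1 or Blvrb. Between the last paired base of the 5′ hairpin and the coding sequence lay 115 bases in Fth1, 153 in Ftl1, 207 in Slc40a1 and 20 in Alas2.

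The genes lie at chr19:9980598-9985098 (Fth1), chr7:45457944-45459884 (Ftl1), chr8:75093621-75100589 (Hmox1), chr1:45908068-45926523 (Slc40a1), chr1:74375195-74386062 (Slc11a1), chr15:97778520-97792692 (Slc48a1), chr16:32608920-32632794 (Tfrc), chr7:27447978-27466144 (Blvrb) and chrX:150547375-150570638 (Alas2). Of 6947 barcodes, 5528 had at least 200 genes and at most 20% mitochondrial UMIs (unique molecular identifiers, each standing for 1 captured RNA molecule). The libraries held between 8301228 and 10359526 UMIs. They also shared barcodes: 924 occurred in more than 1 library, the shallowest copy had a median of 5.22% of the UMIs of the deepest, and 97.4% of the copies that could be compared fell in the same cell class. Each barcode was therefore kept only in its deepest library, which left 4345 cells, and results are also given without any shared barcode where that changed them. Cells were put into classes by marker genes. Microglia-like cells numbered 409 in vehicle replicate 2, 839 in niacin replicate 1 and 975 in niacin replicate 2, and monocyte/macrophage-like cells 344, 83 and 82. Neutrophil-like cells numbered 77, 55 and 44, T-like cells 197, 135 and 153, B-like cells 25, 36 and 47, and choroid plexus-like cells 39, 127 and 129. Between 5.13% (microglia-like) and 13.6% (neutrophil-like) of the cells of the 5 immune classes named lay at the limit of the marker rule, as did 21.9% of the NK-like cells, which enter the lymphocyte-like sums. The neutrophil-like class had a median of 2 monocyte/macrophage markers on in addition to its 7 own, and monocyte/macrophage-like cells of niacin replicate 2 held neutrophil granule RNA (Camp made up 2618 of every 1000000 UMIs, against 2.46 and 16.7 in the other libraries), whose part in the results was not tested. Levels below are in CPM, the UMIs of a gene per 1000000 UMIs of a class in a library, and values are listed in the order vehicle replicate 2, niacin replicate 1 and niacin replicate 2. Because the method counts 3′ ends, levels of different genes can be compared without a length correction, apart from differences in capture.

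**Figure D1:**
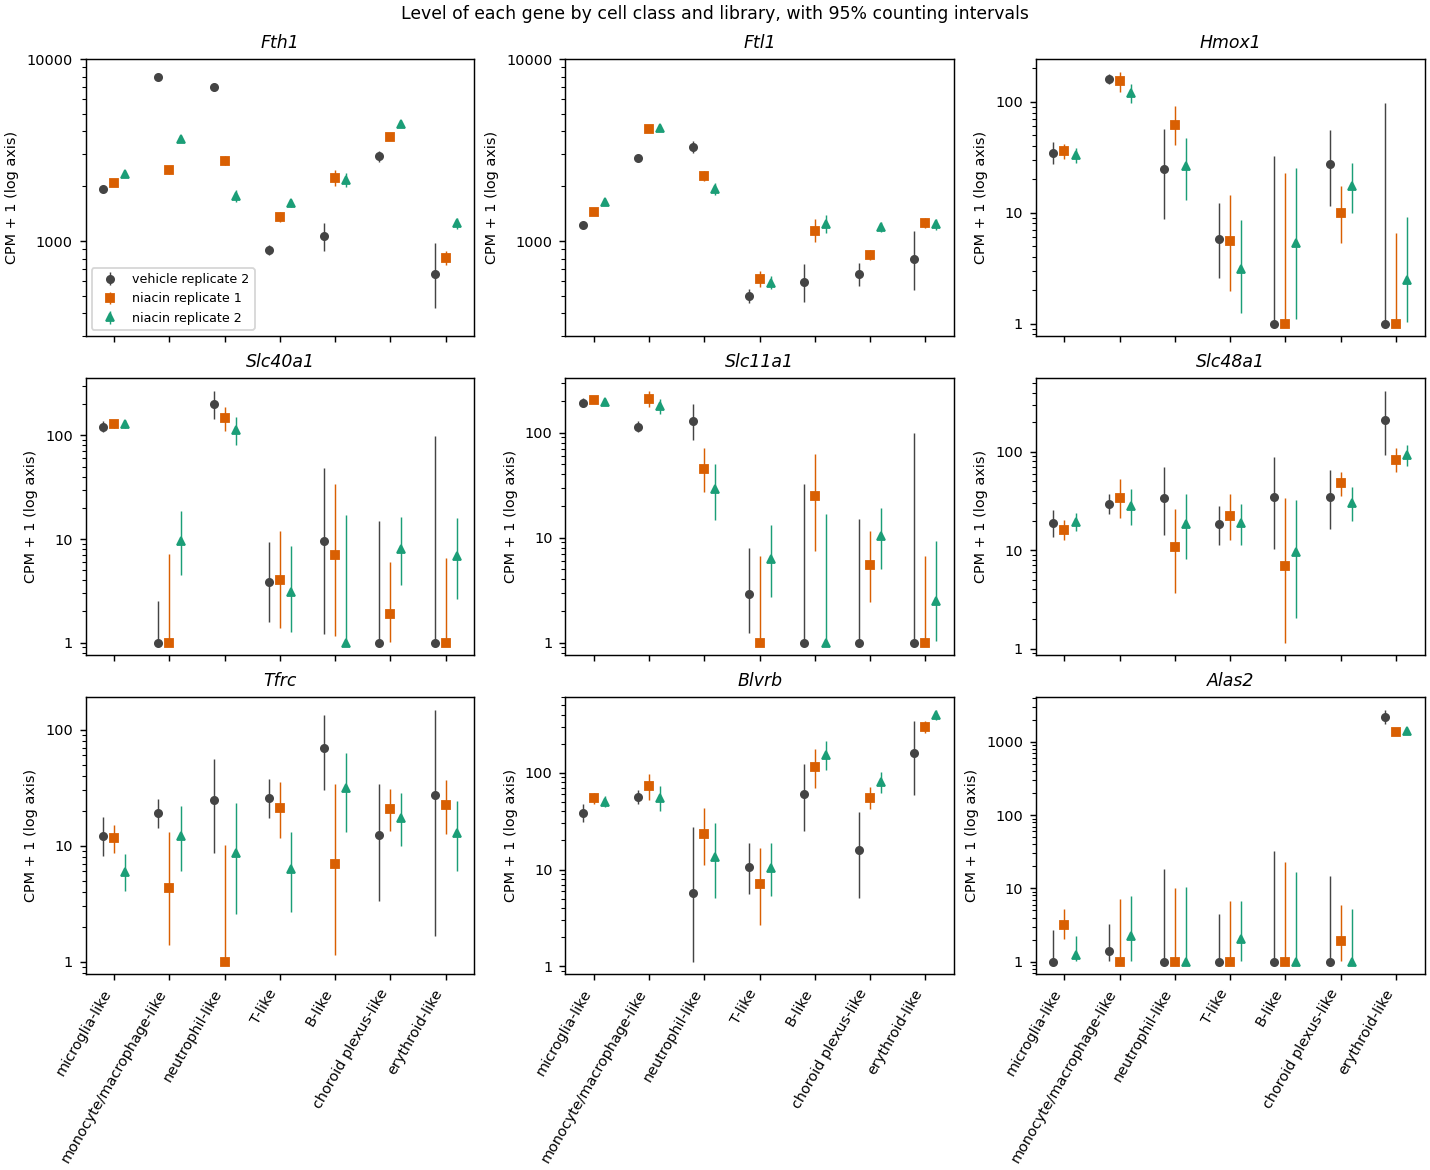
Level of each of the 9 genes (vertical log axis, CPM plus 1) in 7 cell classes (horizontal axis) for the 3 libraries, with exact Poisson 95% intervals. Slc40a1 sits above 100 in microglia-like and neutrophil-like cells of every library and below 10 in the other classes, and Alas2 sits above 1000 in erythroid-like cells alone.

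The ferritin chains were the most abundant of these RNAs in the 6 classes compared below and were higher in monocyte/macrophage-like than in microglia-like cells. Fth1 in monocyte/macrophage-like cells was at 7962, 2455 and 3658, and in microglia-like cells at 1924, 2089 and 2334. Ftl1 was at 2871, 4134 and 4180 in the former and at 1225, 1447 and 1632 in the latter. For neither chain did the libraries of the 2 classes overlap. In a test of class differences within libraries, Ftl1 was lower in microglia-like cells by a log2 fold change of -1.64 ± 0.18 (SE; edgeR adjusted p = 0.000755) and Fth1 by -1.24 ± 0.38 (edgeR adjusted p = 0.0380). The Fth1 call was lost without niacin replicate 2 (-1.44, edgeR adjusted p = 0.124) and when 3 markers were asked of a cell (-1.15, edgeR adjusted p = 0.0515). With both chains summed, ferritin took 1.08%, 0.659% and 0.784% of all UMIs of monocyte/macrophage-like cells, and between 0.315% and 0.397% of those of microglia-like cells.

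In the 6 classes that had 10 cells or more in each of the libraries, Fth1 averaged 4692 ± 2895 (SD, n = 3) in monocyte/macrophage-like cells, 3856 ± 2802 in neutrophil-like cells, 3678 ± 732 in choroid plexus-like cells, 2115 ± 206 in microglia-like cells, 1817 ± 657 in B-like cells and 1284 ± 363 in T-like cells. Of neighbours in this order, only choroid plexus-like and microglia-like cells, and B-like and T-like cells, differed by more than the SD of their log2 differences over the 3 libraries. The order of Ftl1 was another, with 3729 ± 743 in monocyte/macrophage-like cells, 2501 ± 703 in neutrophil-like cells, 1435 ± 204 in microglia-like cells, 991 ± 349 in B-like cells, 897 ± 276 in choroid plexus-like cells and 568 ± 60.5 in T-like cells. The lowest class was the same for both chains. Of neighbours in the Ftl1 order, monocyte/macrophage-like and neutrophil-like cells, and B-like and choroid plexus-like cells, lay within that spread. The near-identical pseudogene Ftl1-ps1 has its own entry in the tables (at most 75.9 in these classes), so some Ftl1 reads may have been split off.

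The balance of the chains set choroid plexus-like cells apart. These cells, the epithelium that makes cerebrospinal fluid, had 4.45, 4.47 and 3.65 Fth1 UMIs per Ftl1 UMI, more than any other of the 6 classes in each library. Microglia-like cells were nearly constant at 1.57, 1.44 and 1.43 (mean 1.48 ± 0.0772, SD, n = 3), and T-like cells had 1.78, 2.20 and 2.73. Monocyte/macrophage-like cells had no common balance, since Fth1 exceeded Ftl1 in vehicle replicate 2 (2.77), and Ftl1 exceeded Fth1 in niacin replicate 1 (0.594) and niacin replicate 2 (0.875). Neutrophil-like cells also had their highest ratio in the vehicle library (2.14, against 1.21 and 0.916).

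**Figure D2:**
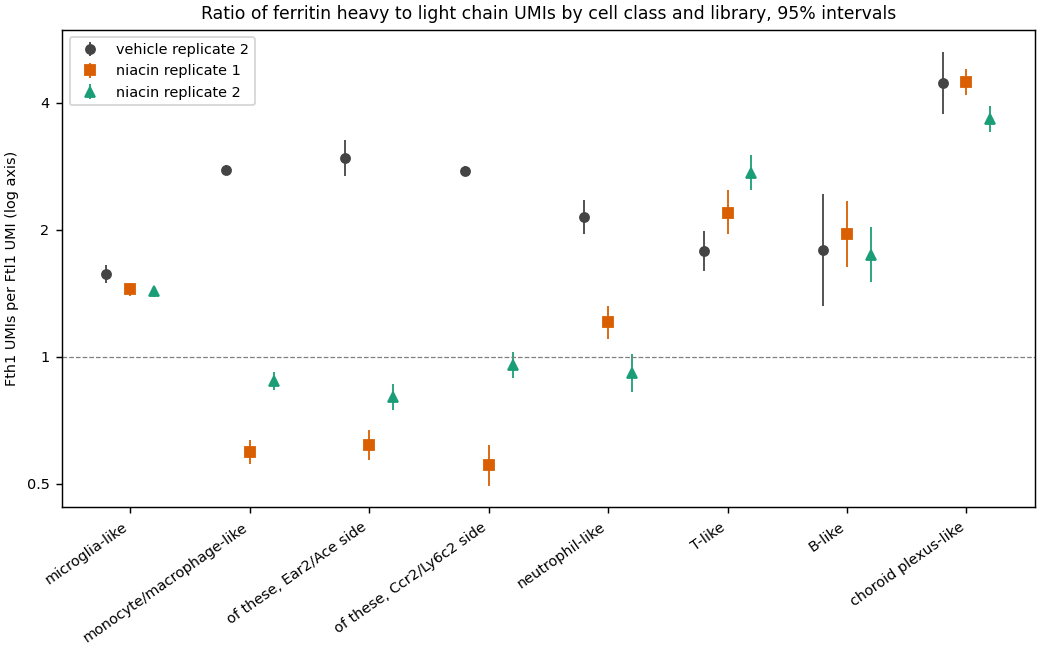
Fth1 UMIs per Ftl1 UMI (vertical log axis) by cell class (horizontal axis) and library, with 95% intervals of counting error; the dashed line marks equal counts. Microglia-like cells lie between 1.43 and 1.57, whereas monocyte/macrophage-like cells run from 0.594 to 2.77 and show the same order of libraries on both sides of the class.

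Within the monocyte/macrophage-like class the libraries differed in makeup. Cells were divided, after the data were seen, by whether they held more UMIs of Ear2, Ace, Treml4 and Clec4a1, genes of patrolling (nonclassical) monocytes, or of Ccr2, Ly6c2, F13a1, Chil3, Fn1 and Vcan, genes of classical monocytes and of macrophages derived from them. The Ear2/Ace side held 8.14%, 72.3% and 57.3% of the class. Fth1 was nearly equal on the 2 sides of a library: 7893 on the Ear2/Ace side against 8071 on the Ccr2/Ly6c2 side in vehicle replicate 2, 2411 against 2592 in niacin replicate 1, and 3536 against 3781 in niacin replicate 2. The difference in Fth1 between libraries was about as large on each side as in the whole class, and the part of makeup in it was not tested. Ftl1 was at 2670, 3899 and 4400 on the Ear2/Ace side and at 2932, 4687 and 3957 on the other, lowest in the vehicle library on both.

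Slc11a1 differed between the sides in each library. It was at 286, 246 and 251 on the Ear2/Ace side and at 96.9, 124 and 104 on the Ccr2/Ly6c2 side. The ratio between the sides was 2.95 (95% interval 2.18 to 3.94), 1.97 (1.25 to 3.22) and 2.41 (1.67 to 3.54), where the intervals cover counting error only. Blvrb was also higher on the Ear2/Ace side in each library, at 79.8, 79.4 and 80.5 against 53.3, 57.0 and 27.3, but only the interval of niacin replicate 2 (1.46 to 6.48) lay above 1. Hmox1 had no common order, with 113, 198 and 83.0 on the Ear2/Ace side against 166, 57.0 and 154.

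**Figure D3:**
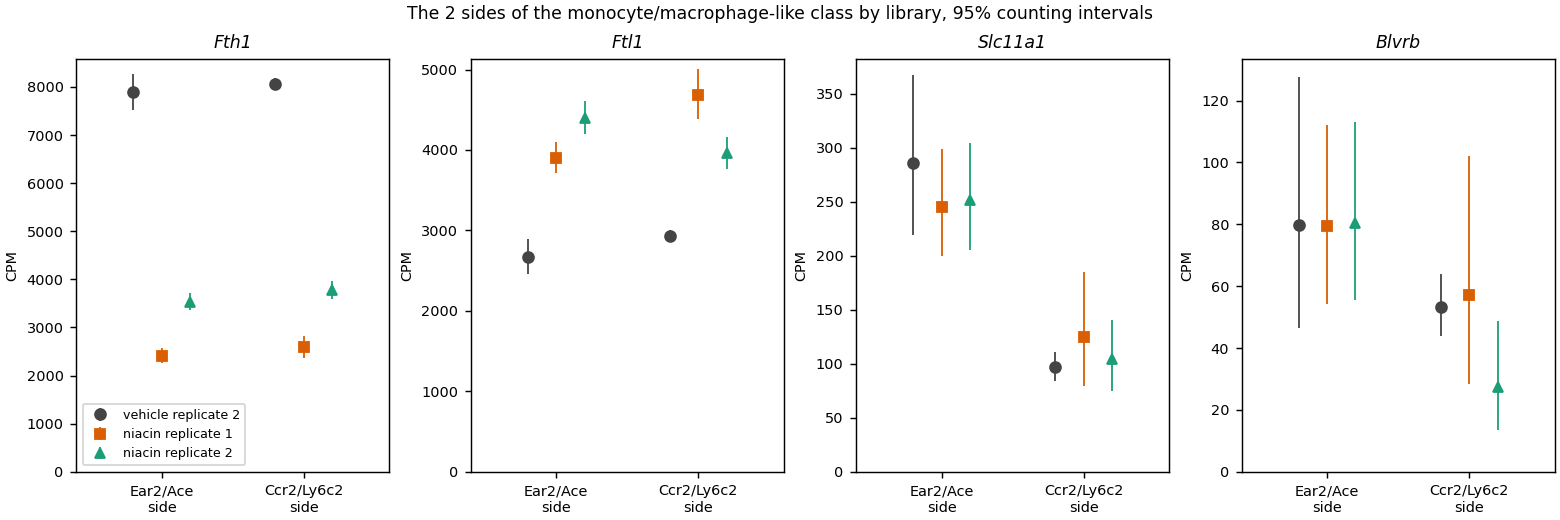
Levels of Fth1, Ftl1, Slc11a1 and Blvrb (vertical axes from 0, CPM) on the 2 sides of the monocyte/macrophage-like class (horizontal axis) in the 3 libraries, with exact Poisson 95% intervals. Fth1 is at 7893 and 8071 in vehicle replicate 2 and at most 3781 elsewhere, whereas Slc11a1 lies between 246 and 286 on the Ear2/Ace side and between 96.9 and 124 on the other.

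The heme oxygenase gene Hmox1 was higher in monocyte/macrophage-like than in microglia-like cells. Its level was 161, 152 and 118 there, 33.7, 34.8 and 31.9 in microglia-like cells, 23.7, 61.4 and 25.2 in neutrophil-like cells, and 4.80, 4.60 and 2.09 in T-like cells. In level, every library of the monocyte/macrophage-like class lay above every library of the other classes named. The share of cells with a UMI after thinning to 1000 UMIs was 9.80%, 6.41% and 7.59% in this class. In neutrophil-like cells it was 2.04%, 7.14% and 0%, on 1, 3 and 0 cells, so the order was not the same in niacin replicate 1. Hmox1 was lower in microglia-like than in monocyte/macrophage-like cells by a log2 fold change of -2.36 ± 0.18 (edgeR adjusted p = 0.000229), and the call held in all 12 alternative settings, although without shared barcodes the monocyte/macrophage-like levels spread to 246, 398 and 70.4. Against lymphocyte-like cells (T, NK and B summed), Hmox1 was higher in microglia-like cells by 2.997 ± 0.302 (edgeR adjusted p = 3.09e-06).

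Blvrb was at 55.8, 71.6 and 54.1 in monocyte/macrophage-like cells and at 37.9, 53.6 and 49.3 in microglia-like cells. Its level was higher in the former in each library, with a log2 fold change of -0.65 ± 0.19 (edgeR adjusted p = 0.0314). The call was lost in 5 of 12 alternative settings, among them without niacin replicate 1 (edgeR adjusted p = 0.114) and without niacin replicate 2 (edgeR adjusted p = 0.0784). The share of cells with a Blvrb UMI after thinning to 1000 UMIs did not keep this order. It was 4.58%, 5.13% and 2.53% in monocyte/macrophage-like cells and 4.56%, 5.74% and 3.77% in microglia-like cells, with overlapping intervals. Among lymphocytes Blvrb was uneven: B-like cells had 59.3, 113 and 152 and T-like cells 9.60, 6.13 and 9.41. It was higher in microglia-like than in lymphocyte-like cells by 0.75 ± 0.23 (edgeR adjusted p = 0.0147), a call lost in 4 of 12 alternatives, among them without vehicle replicate 2 (0.50, edgeR adjusted p = 0.0508). Neutrophil-like cells had 4.74, 22.1 and 12.6, on 1, 9 and 5 UMIs. The highest level was in erythroid-like cells, at 159, 298 and 397.

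Slc40a1, the iron exporter, separated microglia-like from monocyte/macrophage-like cells. In microglia-like cells it was at 121, 127 and 128 (125 ± 3.78, SD, n = 3). In monocyte/macrophage-like cells it was at 0, 0 and 8.61, on 0, 0 and 7 UMIs, and the 7 UMIs came from 3 cells of niacin replicate 2, the library whose class held neutrophil RNA. Microglia-like cells were thus at least 98.1-fold higher in vehicle replicate 2 and at least 25.3-fold higher in niacin replicate 1, with 3 counts per library as the floor, and 14.8-fold higher (7.15 to 37.0) in niacin replicate 2. Neutrophil-like cells were near microglia-like cells, at 199, 145 and 111, and the order of these classes differed between libraries. T-like cells, given for comparison, had 2.88, 3.06 and 2.09, on 3, 2 and 2 UMIs. Without shared barcodes the monocyte/macrophage-like class of niacin replicate 2 was at 3.70, on 1 UMI. The part of free RNA in these UMIs was not tested. The fitted log2 fold change against monocyte/macrophage-like cells was 5.65 ± 0.75 (edgeR adjusted p = 0.00163) for microglia-like cells and 6.76 ± 0.73 (edgeR adjusted p = 9.1e-05) for neutrophil-like cells. These folds depend on the prior count, since 2 of the 3 monocyte/macrophage-like sums were 0, but both calls held in all 12 alternative settings. Against lymphocyte-like cells the log2 fold change of microglia-like cells was 5.41 ± 0.26 (edgeR adjusted p = 4.55e-09).

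The share of cells with a UMI gave the same order after thinning. After each cell was thinned to 1000 UMIs and shallower cells were left out (58, 55 and 127 microglia-like cells, and 28, 13 and 4 neutrophil-like cells), Slc40a1 was detected among microglia-like cells in 9.40%, 11.5% and 10.7%, and among neutrophil-like cells in 20.4%, 19.0% and 7.50%. No thinned monocyte/macrophage-like cell had a UMI among 306, 78 and 79 cells, which, at 3 counts of the total, allows detected shares of up to 0.980%, 3.85% and 3.80%. The same held for T-like cells among 187, 127 and 148, which allows up to 1.60%, 2.36% and 2.03%. These limits are of detection at 1000 UMIs, not of the share of cells that express the gene. Unthinned, 3 of 82 monocyte/macrophage-like cells of niacin replicate 2 (3.66%) held a UMI. Before thinning, shares of 35.9%, 37.3% and 34.2% were found for microglia-like cells, as against 1.52%, 1.48% and 1.31% for T-like cells. The median depths were 3914, 4811 and 4457 UMIs in the former and 5265, 4878 and 6306 in the latter, so the microglia-like class was the shallower one. Unthinned neutrophil-like cells had shares of 24.7%, 49.1% and 54.5%, at median depths of 1949, 5059 and 7041 UMIs. Against microglia-like cells this was the reverse of the thinned order in vehicle replicate 2 and niacin replicate 2.

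**Figure D4:**
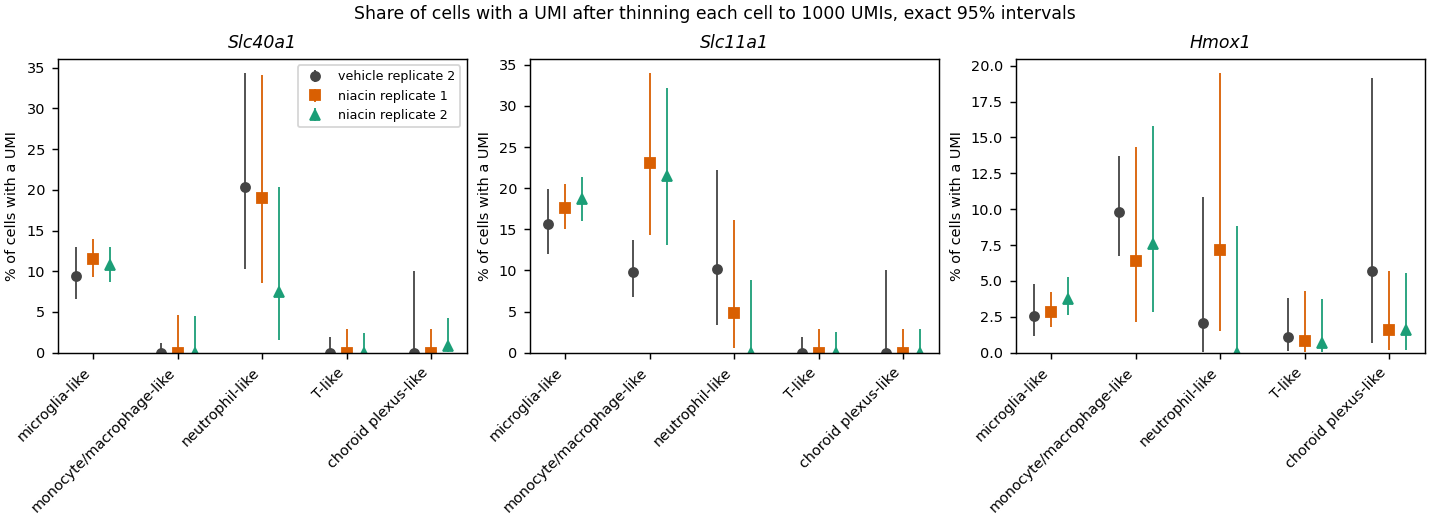
Percent of cells with at least 1 UMI of Slc40a1, Slc11a1 or Hmox1 (vertical axes from 0) by cell class (horizontal axis) and library, after each cell was thinned to 1000 UMIs, with exact binomial 95% intervals. Slc40a1 is detected in microglia-like (9.40% to 11.5%) and neutrophil-like cells and in no monocyte/macrophage-like or T-like cell, whereas Slc11a1 is also detected in monocyte/macrophage-like cells (9.80% to 23.1%).

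Slc11a1, the metal transporter of the phagosome, was shared by the phagocytes. It was at 192, 205 and 196 in microglia-like cells, 113, 210 and 178 in monocyte/macrophage-like cells, and 128, 44.2 and 27.8 in neutrophil-like cells, against 1.92, 0 and 5.23 in T-like cells. The first of these classes was the steadiest, at 198 ± 6.50 (SD, n = 3). Slc11a1 was higher in microglia-like than in lymphocyte-like cells by a log2 fold change of 5.43 ± 0.27 (edgeR adjusted p = 6.21e-09), a call that held in all 12 alternative settings. Between microglia-like and monocyte/macrophage-like cells the log2 fold change was 0.02 (edgeR adjusted p = 0.949), and its sign turned in 3 of 12 settings. This compares whole classes. In each library the Ear2/Ace side of the monocyte/macrophage-like class (286, 246 and 251) lay above microglia-like cells. The Ccr2/Ly6c2 side (96.9, 124 and 104) lay below them, and neither difference was tested. Library by library, microglia-like cells were 1.70-fold higher (1.46 to 1.99) in vehicle replicate 2, and the ratio was 0.976 (0.809 to 1.19) and 1.10 (0.922 to 1.32) in the niacin libraries.

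Slc48a1, which carries heme out of the phagosome, was at most 46.8 in every library of the 6 classes compared above. It was at 28.7, 33.3 and 27.1 in monocyte/macrophage-like cells and at 17.8, 15.2 and 18.4 in microglia-like cells, with no overlap. The log2 fold change was -1.06 ± 0.24 (edgeR adjusted p = 0.0135), which was lost without niacin replicate 1 (-0.92, edgeR adjusted p = 0.0632). Microglia-like and lymphocyte-like cells differed by -0.18 (edgeR adjusted p = 0.565). Erythroid-like cells lay above all of these, at 211, 82.1 and 91.4, on 8, 54 and 62 UMIs.

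Tfrc, the uptake receptor, was lower in microglia-like than in lymphocyte-like cells. It was at 11.2, 10.5 and 4.94 in microglia-like cells, 25.0, 19.9 and 5.23 in T-like cells and 67.8, 5.96 and 30.3 in B-like cells, the last on 8, 1 and 7 UMIs. The fitted difference was a log2 fold change of -1.16 ± 0.29 (edgeR adjusted p = 0.00453), a call that held in all 12 alternative settings. Against monocyte/macrophage-like cells, which were at 18.0, 3.33 and 11.1, the difference was -0.64 ± 0.52 (edgeR adjusted p = 0.348). No neighbouring classes in the order of Tfrc levels differed beyond their spread.

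Alas2 was an erythroid gene. Erythroid-like cells, in which hemoglobin took 92.8%, 94.3% and 87.0% of UMIs, had 2220, 1358 and 1416, on 84, 893 and 960 UMIs from 3, 40 and 38 cells. Of these cells only 1, 3 and 3 carried a barcode found in no other library. Microglia-like cells had 0, 9 and 1 Alas2 UMIs, and the 6 sums of monocyte/macrophage-like and neutrophil-like cells at most 1 each. The niacin replicate 1 microglia-like cells also held the most hemoglobin RNA (0.244% of UMIs, against 0.0431% and 0.0617%), and the part of free red cell RNA in their 9 UMIs was not tested. Erythroid-like cells were 617-fold higher than microglia-like cells in that library (323 to 1353). Alas2 passed the filter on low counts in none of the 4 comparisons described next.

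In the comparison of microglia-like with monocyte/macrophage-like cells, 8 of the 9 genes passed that filter, of which 1 was higher (Slc40a1), 5 were lower and 2 did not pass the test. Over all 10711 genes tested, 20.7% were called higher and 22.3% lower in microglia-like cells. Against lymphocyte-like cells, 5 of 8 genes were higher in microglia-like cells (Slc40a1, Slc11a1, Hmox1, Ftl1 and Blvrb) and Tfrc was lower, where 30.1% of all 10625 genes were higher and 29.2% lower. Ftl1 was higher by 1.01 ± 0.19 (edgeR adjusted p = 0.00067). Fth1 was at 0.53 ± 0.22 (edgeR adjusted p = 0.0563) and passed the test in 3 of 12 alternatives, among them without vehicle replicate 2 (0.30, edgeR adjusted p = 0.000799).

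The third comparison was of neutrophil-like with monocyte/macrophage-like cells. Of 7 genes tested, Slc40a1 was higher and Hmox1 lower (-1.23 ± 0.41, edgeR adjusted p = 0.0408), where 15.6% of all 6349 genes were higher and 17.6% lower. The fitted Hmox1 difference, which uses TMM scaling, was smaller than that of the CPM levels in each library (23.7, 61.4 and 25.2 against 161, 152 and 118). The Hmox1 call was lost in 6 of 12 alternatives, among them without each library in turn: -0.69 without vehicle replicate 2 (edgeR adjusted p = 0.112), -1.85 without niacin replicate 1 (edgeR adjusted p = 0.0766) and -1.24 without niacin replicate 2 (edgeR adjusted p = 0.0645). Slc11a1 was at -0.81 (edgeR adjusted p = 0.138), and at -1.44 (edgeR adjusted p = 0.00260) without vehicle replicate 2. Fth1 in neutrophil-like cells was at 7040, 2759 and 1767 and Ftl1 at 3286, 2288 and 1929. The libraries of this class also differed in neutrophil genes, with Cxcr2, a receptor of mature neutrophils, at 1659, 709 and 565, Camp, a granule gene of immature ones, at 14612, 20330 and 29933, and a median depth of 1949, 5059 and 7041 UMIs. The part of these differences in the levels of Fth1, Ftl1 and Slc11a1 was not tested.

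**Figure D5:**
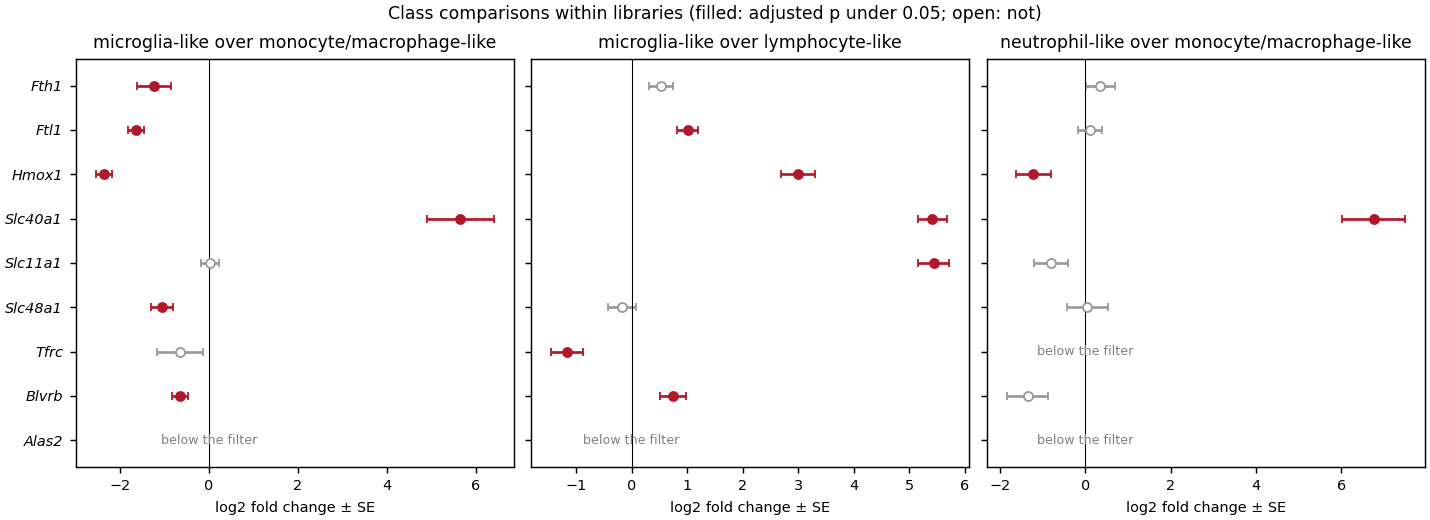
Log2 fold change with its SE (horizontal axes) of each gene (vertical axis) between classes, fitted by edgeR over 3 libraries with library as a block; filled points have an adjusted p under 0.05. Slc40a1 lies at 5.65, 5.41 and 6.76, and Hmox1 lies at -2.36 against monocyte/macrophage-like cells and at 2.997 against lymphocyte-like cells.

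Among microglia-like cells both ferritin chains were lower in shallow cells. Cells under 2000 UMIs had 0.542 (0.466 to 0.628), 0.479 (0.420 to 0.543) and 0.336 (0.301 to 0.375) times the Fth1 level of deeper cells, and 0.454, 0.499 and 0.407 times the Ftl1 level. Slc40a1 was at 1.12 (0.697 to 1.72), 0.920 (0.605 to 1.35) and 0.746 (0.525 to 1.03) times, and Slc11a1 at 0.967, 0.977 and 1.15 times, all with intervals that hold 1. Blvrb was at 0.441, 0.530 and 0.483 times, with an interval below 1 in niacin replicate 2 (0.228 to 0.906). Hmox1 was at 29.1, 4.18 and 22.5 in the shallow cells, on 5, 1 and 9 UMIs, against 34.1, 36.7 and 32.8 in deeper cells. Slc48a1 had 0, 2 and 0 UMIs in the shallow cells.

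Microglia-like cells with a UMI of a cell cycle gene, which were 47, 63 and 55 cells, had more Fth1. The level was 2411, 2620 and 3287 with such a UMI and 1817, 2026 and 2248 without, higher in each library, with a log2 fold change of 0.43 ± 0.10 (edgeR adjusted p = 0.00886). Of 8 genes tested it was the only one called, where 1.69% of all 9244 genes were higher and 0.433% lower, or 156 against 40 genes (50 against 4 by DESeq2). The cells with a cell cycle UMI were also deeper (median 7963, 6708 and 6931 UMIs against 3120, 4389.5 and 4111). Among cells of at least 2000 UMIs the call held (0.39, edgeR adjusted p = 0.0242), but those with a cell cycle UMI were still deeper (median 8914, 6823.5 and 7485.5 UMIs against 7073, 5902 and 6370.5), and the part of depth was not tested. It was lost without niacin replicate 2 (0.37, edgeR adjusted p = 0.466) and without shared barcodes (0.24, edgeR adjusted p = 0.477). Tfrc, known from dividing cells, was at 10.4, 11.6 and 8.12 against 11.4, 10.4 and 4.65 (log2 fold change 0.19, edgeR adjusted p = 0.938).

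A wider list of 57 further iron and heme genes gave the setting. Between microglia-like and monocyte/macrophage-like cells, 43 were tested, 6 were higher and 12 lower in microglia-like cells, and the median log2 fold change was -0.12 against 0.08 over all genes, of which 20.7% were higher and 22.3% lower. Trf, which encodes transferrin, was at 540, 672 and 688 in microglia-like and at 151, 110 and 141 in monocyte/macrophage-like cells (1.96 ± 0.23, edgeR adjusted p = 0.000998). The heme-binding gene Hebp1 (2.33 ± 0.56, edgeR adjusted p = 0.0169) and Gclc, which starts glutathione synthesis (2.18 ± 0.26, edgeR adjusted p = 0.00112), were also higher, the former not without niacin replicate 2 (edgeR adjusted p = 0.0675). Lower were Hp, encoding the hemoglobin binder haptoglobin, at 1.87, 2.20 and 3.14 against 108, 506 and 395 (-7.33 ± 0.36, edgeR adjusted p = 8.63e-05), and the cystine transporter gene Slc7a11 (-3.05 ± 0.63, edgeR adjusted p = 0.00904). Lcn2, which encodes a binder of bacterial iron carriers, was at 17.6, 105 and 858 in monocyte/macrophage-like cells, highest in niacin replicate 2, where Camp was also highest, and the part of neutrophil RNA was not tested. It was lower in microglia-like cells by -4.57 ± 0.98 (edgeR adjusted p = 0.0107), but without shared barcodes it was at 0.73 (edgeR adjusted p = 0.482). Of 7 genes tested of a list of heme and oxidant transcription factors with their targets, 5 were lower (Bach1, Nfe2l2, Txnrd1, Gpx4 and Slc7a11) and 1 higher (Gclc), with a median log2 fold change of -0.85 against 0.08 over all genes, and the list itself was not tested. Of 8 heme synthesis genes tested, edgeR and DESeq2 called 0, and 1 had an unadjusted edgeR p under 0.05.

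Against lymphocyte-like cells, 17 of 39 wider genes tested were higher in microglia-like cells and 5 lower, with a median log2 fold change of 0.51 against 0.01 over all genes, of which 30.1% were higher and 29.2% lower. The highest were Lrp1, a receptor that takes up heme-hemopexin (5.91 ± 0.25, edgeR adjusted p = 2.03e-09), Hebp1 (5.28 ± 0.39), Trf (4.95 ± 0.26), Hfe, a partner of the transferrin receptor (4.58 ± 0.30), and the heme-sensing and oxidant-sensing factors Bach1 (2.27 ± 0.16) and Nfe2l2 (2.12 ± 0.15). Their edgeR adjusted p were at most 1.79e-07. Between neutrophil-like and monocyte/macrophage-like cells, 10 of 29 were higher and 4 lower, with a median of 0.12 against -0.14 over all genes, of which 15.6% were higher and 17.6% lower. Ltf, encoding lactoferrin, an iron-binding granule protein, was at 7026, 7359 and 8790 against 4.10, 9.99 and 628 (8.72 ± 1.22, edgeR adjusted p = 0.000395, and 0.0535 without niacin replicate 1). Lcn2 (7.21 ± 0.76), the ferrireductase Steap4 (6.00 ± 0.78) and Slc7a11 (3.15 ± 0.41) were higher, and Hfe (-4.71 ± 0.53) and Lrp1 (-3.76 ± 0.43) lower, with edgeR adjusted p of at most 0.000277. Steap4 had 8, 33 and 4 UMIs in neutrophil-like cells against 3, 0 and 0, so the size of its fold depends on the prior count. In microglia-like cells with against without a cell cycle UMI, edgeR and DESeq2 called 0 of 37 wider genes, and 3 had an unadjusted edgeR p under 0.05. Over all 9244 genes edgeR called only 1.69% higher and 0.433% lower, so few calls among 37 genes would be found at that share.

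The genes most like each of the 9 were sought among 6254 genes, as a description. Each Pearson correlation of log2 levels was taken over 24 sums of 9 classes and 3 libraries, which share libraries and depth. Slc40a1 was most like C5ar2 (0.899), Cd33 (0.888) and Cebpd (0.853). Slc11a1 was most like Cd300c2 (0.974), Sirpa (0.943) and Cd68 (0.941). Hmox1 was most like Plin2 (0.918), Lrrc25 (0.899) and Tnfrsf1a (0.885). The ferritins had different partners, namely Ninj1 (0.872), Rab20 (0.807) and Gabarap (0.794) for Fth1 and Lst1 (0.846), Cd300a (0.822) and Nfam1 (0.807) for Ftl1. Bpgm, an enzyme gene of red cells, was among the genes most like Alas2 (0.944), and Blvrb was most like the globin genes Hba-a1 (0.719), Hbb-bs (0.716) and Hba-a2 (0.709), in which the erythroid-like sums stand far from the rest. Lower correlations were found for Slc48a1, with Ube2o (0.677), Fech (0.648) and Ube2l6 (0.633), and for Tfrc, with Jchain (0.651), Igkv12-46 (0.597) and Wars (0.575).

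The niacin libraries were set beside the 1 vehicle library without a test, since the spread between vehicle pools is unknown and treatment, library, depth and mitochondrial share (median 8.85% of UMIs over all barcodes of the vehicle library, 3.08% and 3.29% of the niacin libraries, and 3.23%, 1.84% and 2.44% in the microglia-like cells used) cannot be told apart. In microglia-like cells, 0 of 6 genes with a mean level of at least 20 lay 1.5-fold to one side of the vehicle library in both niacin libraries, where 4.94% of 6597 genes lay higher and 8.25% lower. Slc40a1 had ratios of 1.05 and 1.06, Slc11a1 of 1.07 and 1.02, Hmox1 of 1.03 and 0.946, Fth1 of 1.09 and 1.21, Ftl1 of 1.18 and 1.33, and Blvrb of 1.42 and 1.30. In monocyte/macrophage-like cells, Slc11a1 was higher in both (1.86 and 1.58) and Fth1 lower in both (0.308 and 0.459), where 12.5% of 5933 genes lay higher and 15.0% lower. Within the Ear2/Ace side the Slc11a1 ratios were 0.858 and 0.878, and within the Ccr2/Ly6c2 side 1.28 and 1.07, each with an interval that holds 1. The Fth1 ratios within the sides were 0.305 and 0.448, and 0.321 and 0.468. Ftl1 had ratios of 1.44 and 1.46 in the whole class. Fth1 in neutrophil-like cells was at 0.392 and 0.251, and in T-like cells at 1.52 and 1.80. Of the wider list, 1 of 27 genes in microglia-like cells lay past 1.5-fold (Slc39a14, a zinc and iron importer, at 0.627 and 0.582). In monocyte/macrophage-like cells 4 of 25 lay higher and 7 lower, among them Hfe at 6.26 and 3.54, Alas1, the first enzyme of heme synthesis outside red cells, at 0.101 and 0.279, and Slc7a11 at 0.169 and 0.187. These ratios are of the whole class, whose makeup differed between libraries. The higher genes included Ltf (4.10, 9.99 and 628) and Lcn2 (17.6, 105 and 858), both highest where Camp was highest. The part of neutrophil RNA in them was not tested.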

How the data were processed

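Libraries were made with Chromium 3′ v3.1 reagents. Per the labels, the authors aligned reads with Cell Ranger 3.1 and STAR to mm10, and the deposited matrices hold raw UMI counts per gene and barcode. Barcodes with at least 200 genes and at most 20% mitochondrial UMIs were used, a barcode of several libraries only in its deepest. No doublet caller was run. A marker counted as on where its share of a cell's UMIs exceeded the mean, and the lineage with most markers on (at least 2, lead of 1) named the cell. Classes with fewer than 10 cells in a library were left out of means. Counts were summed per class and library and tested with edgeR 4.0.16 (quasi-likelihood, TMM, filterByExpr, library as a block, Benjamini-Hochberg over all genes tested, threshold 0.05) in R 4.3.3. DESeq2 1.42.0 was an alternative, as were RLE scaling, no filter, no block, 3 markers, a mitochondrial limit of 10%, at least 2000 UMIs, leaving out each library or shared barcodes and, added after the data were seen, every barcode kept. On simulated counts with 200 changed genes the comparison of microglia-like with monocyte/macrophage-like cells recovered 24.0% of 2-fold and 89.5% of 4-fold changes. Against lymphocyte-like cells it was 26.5% and 94.0%, for neutrophil-like against monocyte/macrophage-like cells 15.5% and 77.0%, and by cell cycle UMI 14.5% and 85.5%. The simulation gave every gene the same spread beyond counting error and no difference between libraries, unlike the data. Intervals are exact at 95% and cover counting error only. Within-library classes come from the same pools, so p-values measure the spread between 3 pools. Niacin and vehicle were compared by ratios alone. Level orders used log2(CPM + 10). The genes and lists were chosen with earlier results of these data known. Named were the 9 genes, up to 6 wider-list genes per comparison (adjusted p under 0.05, mean of at least 20, greatest change) and the 3 genes most correlated with each of the 9 (1 for Alas2). Some genes, and an alternative that rests on 1 of them, are not reported here. Other genes were named after their values were seen. UTR sequences were read from GENCODE M21 transcripts. Labels give both 4 tissues pooled per sample and 5 vehicle and 10 niacin mice, and which holds for a library was not settled.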

Additional observations from a re-analysis of the deposited data

Results flagged for a closer look

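Ratios of the niacin libraries to the 1 vehicle library lay on opposite sides of 1 in different classes, and none of these differences was tested, since every ratio shares the vehicle library. For Fth1 the ratios were 1.09 and 1.21 in microglia-like cells, 1.52 and 1.80 in T-like cells and 1.28 and 1.501 in choroid plexus-like cells, against 0.308 and 0.459 in monocyte/macrophage-like cells and 0.392 and 0.251 in neutrophil-like cells. For Ftl1 they were 1.18 and 1.33 in microglia-like cells, 1.44 and 1.46 in monocyte/macrophage-like cells, 1.23 and 1.18 in T-like cells and 1.28 and 1.83 in choroid plexus-like cells, against 0.696 and 0.587 in neutrophil-like cells. For Slc11a1 they were 1.86 and 1.58 in monocyte/macrophage-like cells against 0.345 and 0.217 in neutrophil-like cells. Ftl1 in neutrophil-like over monocyte/macrophage-like cells was 1.14 in the vehicle library and 0.553 and 0.461 in the niacin libraries, which was not tested either. Groups of 3 libraries or fewer were too small for a check of single samples.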

How the results depend on the processing

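The calls of Slc40a1 in 3 class comparisons, Ftl1 and Hmox1 for microglia-like cells against either class, and Slc11a1 and Tfrc for microglia-like against lymphocyte-like cells held in every alternative run. Over all gene tests 538 kept direction and call, 23 lost the call, 8 gained it and 14 turned. None of those that turned was called with the settings of the report, apart from Lcn2. Slc11a1 for microglia-like against monocyte/macrophage-like cells was at -0.023 with no replicate block, -0.12 without shared barcodes and -0.20 to 0.17 with 1 library left out (negative without vehicle replicate 2), and Lcn2 at 0.73 without shared barcodes. For neutrophil-like against monocyte/macrophage-like cells, Slc48a1 was at -0.068 with no filter and at -0.13 to 0.37 with 1 library left out (-0.13 without vehicle replicate 2 and -0.13 without niacin replicate 2), and Fth1 at -0.037 to 0.56 (negative without niacin replicate 1). By cell cycle UMI, Hmox1 was at -0.029 with no filter, -0.011 with 3 markers and -0.27 to 0.21 with 1 library left out (negative without niacin replicate 2), Blvrb at -0.022 without shared barcodes and -0.033 to 0.33 (negative without vehicle replicate 2), and Slc48a1 at -1.01 to 0.052 (positive without niacin replicate 1). The causes were not tested.

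Counts of called genes were 4605 for microglia-like against monocyte/macrophage-like cells (2651 to 5046 with 1 library left out), 6300 against lymphocyte-like cells and 2108 for neutrophil-like against monocyte/macrophage-like cells (658 to 2276 with 1 library left out, 1145 without shared barcodes). By cell cycle UMI there were 196, with 54 by DESeq2, 13 with no replicate block, 34 without shared barcodes and 83 to 324 with 1 library left out. Genes past 1.5-fold numbered 870 in microglia-like cells (1672 at a mean of at least 5) and 1632 in monocyte/macrophage-like cells (2566 at a mean of at least 5, 2369 to 2465 with 1 niacin library left out). With thinning to 2000 UMIs, 20 of 54 shares stayed within 1 SD. No paired analysis was possible because vehicle and niacin libraries share only 1 replicate number and the vehicle group has 1 library. Sums of few UMIs in the smaller classes limit Tfrc, Slc48a1 and Alas2, and also Hmox1 and Slc40a1 in B-like cells.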
